A study of Mus musculus with 2 samples.

Results

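Choroid plexus epithelial cells are the secretory epithelium of the brain ventricles, and 544 of the 4417 kept cells of 2 mouse cerebellum libraries were of this kind, 410 of 1966 in the library labelled WT and 134 of 2451 in the library labelled KIKO. A kept cell held more than 500 genes, more than 1000 unique molecular identifiers (UMIs, each standing for 1 captured RNA molecule) and under 10% of its UMIs from mitochondrial genes, with no upper limit on UMIs or genes. Choroid plexus epithelial cells were the kept cells with a UMI of at least 3 of Folr1, Kl, Clic6, Kcne2, Kcnj13 and Sostdc1, in which the sum over these 6 genes was at least 3 times the sum over the endothelial genes Cldn5, Flt1, Pecam1 and Cdh5. The cells were thus chosen by the measured UMI counts of these 10 genes, whose levels are given only as a description.

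The study compared the cerebellum of WT mice, C57BL/6 littermates, with that of KIKO (knock-in knock-out) mice, which model Friedreich ataxia. KIKO mice carry 1 allele with a knocked-in GAA repeat expansion and 1 knocked-out allele of the same gene, in all cells of the body. Per the study's methods, the mice were 6 months old, the cerebella of 4 mice were pooled per genotype, and the enzymatically dissociated suspensions were frozen and thawed before droplet capture. Each genotype is 1 library in which mice cannot be told apart, so that nothing below was checked against replicates or tested. The intervals cover counting error only.

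The choroid plexus secretes cerebrospinal fluid and forms the barrier between blood and that fluid. Its epithelial cells pump ions through the Na/K-ATPase and bicarbonate transporters, carry folate and other nutrients inward, and release carrier proteins such as transthyretin. They are ciliated, joined by tight junctions, and specified by transcription factors such as Otx2 and Lmx1a. Iron-sulphur clusters, whose assembly is impaired in Friedreich ataxia, are cofactors of the respiratory chain.

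The libraries held 3237 barcodes labelled WT and 3685 labelled KIKO, of which 45 barcodes occurred in both and none of these 45 was a choroid plexus epithelial cell. The other kept cells held a median of 8653.5 UMIs per cell labelled WT and 8126 labelled KIKO. Endothelial cells, taken by the mirrored rule (at least 3 of the 4 endothelial genes and at least 3 times the choroid plexus sum), are the comparison cells below, with 1128 and 1610 cells. Every direction below follows the labels, which no value given here checks. The study's methods name female and male mice, without the sex of the mice pooled here. The 4 Y-linked genes Ddx3y, Uty, Kdm5d and Eif2s3y held 0 to 2 UMIs each over all kept cells of either library. Xist, the RNA of the inactive X chromosome, held 21929 UMIs labelled WT and 20877 labelled KIKO. By these genes both libraries were almost wholly of female cells.

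Choroid plexus epithelial cells held several times the RNA of the other kept cells, with a median of 59999.5 UMIs and 6432.5 genes labelled WT (range 1054 to 236102 UMIs) and 56729 UMIs and 6381.5 genes labelled KIKO (range 1018 to 198137). Those above 20000 UMIs, called deep below, were 304 of 410 labelled WT (74.1%) and 93 of 134 labelled KIKO (69.4%), a difference of -4.74 percentage points whose interval held 0 (-13.9 to 3.70). The remaining 106 and 41 cells are called shallow. The study removed as outliers cells above a limit of 20000 UMIs and a limit of 10000 genes, and 9 cells labelled WT and 1 labelled KIKO exceeded both.

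These cells made up 20.9% of the kept cells labelled WT (exact binomial interval 19.1 to 22.7) and 5.47% of those labelled KIKO (4.60 to 6.44), 15.4 percentage points fewer (Newcombe interval of the difference -17.4 to -13.4). Among cells of at most 20000 UMIs and 10000 genes the shares were 7.64% and 1.99%, and the difference was -5.65 points. Without only the cells that exceeded both limits the shares were 20.5% and 5.43%. Dissection, dissociation, freezing and the mice of each pool cannot be told apart from the label in this share.

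The mitochondrial limit removed choroid plexus epithelial cells unequally. Of all barcodes that met the other conditions, 10% mitochondrial UMIs or more were held by 194 of 604 labelled WT (32.1%) and by 109 of 243 labelled KIKO (44.9%), 12.7 points more in the latter (5.51 to 19.98). Among the other barcodes the limit removed 11.03% and 7.58%. With the limit at 20%, a setting chosen after seeing the data, 540 and 194 cells were kept, 24.8% and 7.51% of all cells. The difference in share was -17.3 points under the looser limit and -15.4 under the limit of 10%. As a ratio, the shares of the labels lay somewhat closer together under the looser limit.

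**Figure D1:**
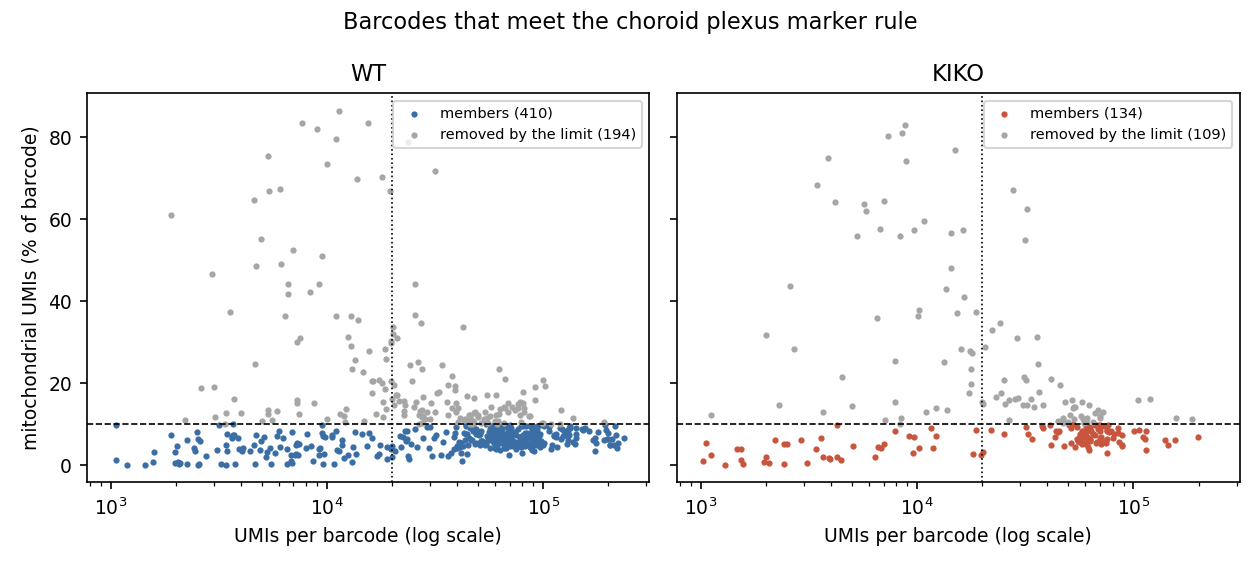
Percentage of mitochondrial UMIs (y axis) against UMIs per barcode (x axis, log scale) for every barcode that met the marker rule, in 1 panel per library; the dashed line is the limit of 10% and the dotted line 20000 UMIs. The 410 WT and 134 KIKO cells lie under the dashed line, mostly to the right of the dotted one, and the 194 and 109 removed barcodes lie above it.

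At the edges of the rule, the 8 cells labelled WT and 8 labelled KIKO with exactly 3 of the 6 markers gave a median of 33.5% and 32.8% of their UMIs to Ttr, which the rule did not use. The 53 and 27 kept cells with exactly 2 markers gave 0.215% and 0.329%. Cells whose marker sum was 3 to under 10 times the endothelial sum (20 and 7) had medians of 28.7% and 27.4%, and the 29 and 33 cells with at least 3 markers that missed this ratio had 19.7% and 20.7%. The cells with exactly 2 markers held a median of 117 and 10 UMIs of the endothelial genes against 2 and 2 of the rule's markers, so the marker count was not the only difference. The cells that missed the ratio alone held both Ttr and endothelial RNA. Within the rule, 1 cell labelled WT and 5 labelled KIKO held less than 50000 CPM of Ttr, from 0.703% to 4.74% of their UMIs. They held 21108 to 57009 CPM of the noncoding RNA Malat1. Its medians were 6636 and 7250 CPM over all cells of the rule and 29157 and 28761 CPM over the other kept cells. By both RNAs these few cells were thus unlike the rest, and their name is uncertain. Barcodes just under the mitochondrial limit (9 to under 10%, 34 and 19) and just over it (10 to under 11%, 26 and 9) had Ttr medians of 32.3% and 28.02%, and of 33.9% and 29.4%.

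The name of these cells was checked against Ttr, which encodes transthyretin, the carrier of thyroid hormone and retinol in cerebrospinal fluid. Ttr alone gave 34.1% of all UMIs of these cells labelled WT and 30.6% labelled KIKO, and per cell a median of 34.8% and 31.7%. It was found in all 544 cells. In the other kept cells it stood at 22871 CPM (counts per 1e+06 UMIs of the cells summed) labelled WT and 4299 labelled KIKO, against 341495 and 305866 CPM in the choroid plexus epithelial cells. A Ttr UMI was present in 1128 of 1128 and 1602 of 1610 endothelial cells, so that a single Ttr UMI did not mark a cell, while its share did. The genes of the rule stood at 1119 and 1075 CPM (Folr1, the folate receptor), 725 and 750.2 CPM (Kl, klotho), 1017 and 1028 CPM (Kcnj13, the potassium channel Kir7.1), 835 and 795 CPM (Sostdc1, a secreted BMP and Wnt antagonist), 499 and 623 CPM (Kcne2, a potassium channel subunit) and 356 and 415 CPM (Clic6, a chloride channel protein). All 6 were detected in 360 of 410 and 110 of 134 cells. A UMI of Folr1 was found in 401 and 128 of these cells, and in 4.61% and 3.11% of endothelial cells at their median depths of 9700 and 8982.5 UMIs.

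In the order of the cells labelled WT, the most abundant mRNA of a nuclear gene after Ttr was Enpp2 (autotaxin, a secreted lysophospholipase D). It stood at 13554 CPM labelled WT and 13765 labelled KIKO. Apoe followed at 4594 and 4124, Ecrg4 at 4502 and 4629, and Bsg at 4248 and 3908. After them came Arl6ip1 at 3262 and 2993 and Igfbp2 at 2747 and 2746. The 10 most abundant genes together gave 41.9% and 39.0% of all UMIs. Most of this share was Ttr. Of the other 9 genes labelled WT, 5 were mitochondrial and 2 noncoding, and Enpp2 and Apoe gave 1.36% and 0.459%. Enpp2 and Igfbp2 stood at nearly the same level under both labels.

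The genes that most set these cells apart from the other kept cells, by the smaller of the ratios of the 2 libraries, were led by Cox8b, a subunit of cytochrome c oxidase usually described in heart and muscle. It stood at 154 CPM labelled WT, 19.9-fold over the other cells, and at 117 CPM labelled KIKO, 78.6-fold over them. Next came Pcp4, a calmodulin-binding peptide (198 and 213 CPM, 18.8- and 64.0-fold), and Defb11, a beta-defensin (69.9 and 52.8 CPM, 18.1- and 112-fold). Mia, a small secreted protein, stood at 271 and 239 CPM, and Steap1, of a family of membrane metalloreductases, at 278 and 230 CPM. Further genes among the first 15 were Prr32, Sostdc1, Ttr, Serpinb1b, Kcnj13, Wfdc2, Smim22, Calml4, Krt18 and Gm29538. Sostdc1 and Kcnj13 are genes of the rule, which chose the cells by them. The ratios were larger labelled KIKO for each of these genes, and with a 16-fold limit 5 of 2181 genes passed labelled WT and 147 labelled KIKO. The other cells labelled WT held more of these transcripts, as they did of Ttr. They include the cells with at least 3 markers that missed the ratio, 29 labelled WT and 33 labelled KIKO. These held a median of 79730 and 3379 UMIs, with Ttr at 19.7% and 20.7%. In endothelial cells Ttr stood at 1816 and 967 CPM and Folr1 at 3.59 and 2.77 CPM. What part the cells that missed the ratio have in the larger KIKO ratios was not tested. Beta-defensin genes are near-copies of each other, so the assignment of reads to Defb11 is uncertain.

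Of the promoters of the 13 leading genes found in RefSeq, 3 held GTTGCC (searched on both strands), core letters of the sites of RFX factors, which drive ciliary genes in ciliated epithelia. These were Defb11, Prr32 and Steap1. These letters occur in 10.4% of the 32851 RefSeq promoters of the same 250 bases, so 3 of 13 is a description of few genes. Here and in the gene groups below, a gene was counted if any of its promoters held the letters. The percentages are of single promoters, so a gene with several promoters had more chances to be counted. The homeobox letters TAATCC (6.25% of all promoters) and the forkhead letters GTAAACA (3.17%) were in none of the 13. A pair of these promoters, which carry the letters close to and far from the start, is shown as the 250 bases upstream of the transcript start (RefSeq, GRCm38.p6, minus strand of the chromosome, read 5′ to 3′ along the gene), with the letters in capitals in the orientation GGCAAC. They lie 28 bases before the start of Defb11 (chr8:21906433-21906682) and 243 bases before the start of Steap1 (chr5:5749318-5749567).
Defb11: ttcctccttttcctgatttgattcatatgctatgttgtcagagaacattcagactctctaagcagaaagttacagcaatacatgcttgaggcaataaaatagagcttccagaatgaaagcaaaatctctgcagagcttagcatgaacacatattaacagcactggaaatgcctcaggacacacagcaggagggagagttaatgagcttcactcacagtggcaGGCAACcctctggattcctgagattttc
Steap1: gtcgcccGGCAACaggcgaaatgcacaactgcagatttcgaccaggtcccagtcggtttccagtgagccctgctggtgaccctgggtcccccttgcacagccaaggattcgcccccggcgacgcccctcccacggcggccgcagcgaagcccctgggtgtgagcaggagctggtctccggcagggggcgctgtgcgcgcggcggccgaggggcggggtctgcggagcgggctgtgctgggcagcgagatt

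RNA of other cell types was present in these cells at low levels. Each count here is the number of cells with at least 3 markers of a list. For the 15 endothelial markers it was 225 of 410 cells labelled WT and 72 of 134 labelled KIKO, and the list summed to 227 and 165 CPM, against 17123 and 17289 CPM in endothelial cells. For the 10 mural markers it was 27 and 11 cells, with sums of 87.4 and 128 CPM. The endothelial sum was thus higher labelled WT and the mural sum higher labelled KIKO. The tenth of cells highest in endothelial markers (41 and 13 cells) held 66.7% of the endothelial-marker UMIs labelled WT and 42.1% of those labelled KIKO, and the tenth highest in mural markers held 64.0% and 72.3% of the mural ones. For 12 macrophage and microglia markers the counts were 7 cells (1.71%) and 10 cells (7.46%), with sums of 11.5 and 21.1 CPM. For 10 fibroblast markers they were 78 and 20 cells, at 54.0 and 60.9 CPM, with Col1a1 at 0. For 8 ependymal markers they were 151 and 39 cells, at 314 and 294 CPM, with the defining genes Tmem212 and Ccdc153 at 0 in both libraries. Of these sums 271 and 239 CPM were Mia, named above as a leading gene of the choroid plexus cells. The ependymal list summed to only 45.2 and 40.6 CPM in endothelial cells, so its sums here do not show RNA of ependymal cells. No cell reached 3 markers of T cells or of granule neurons, which allows shares of up to 0.732% and 2.24%. The 8 granule neuron markers nevertheless summed to 60.2 and 60.4 CPM, against 126 and 121 CPM in endothelial cells. Nearly all of this came from the 2 genes with at least 10 UMIs. The granule neuron genes Snap25, Cbln1, Gabra6, Calb2 and Cbln3 were at 0 in both libraries. Oligodendrocyte markers reached 3 in 15 and 0 cells, at 41.3 and 41.5 CPM, with Mog and Cldn11 at 0. Astrocyte markers did so in 4 and 0 cells, at 33.4 and 38.4 CPM, and erythroid markers in 3 and 2, at 8.37 and 9.87 CPM. Doublets were not called or removed. What part foreign RNA has in the gene differences below was not tested, apart from the values without the highest cells that stand beside them.

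The deep and shallow cells differed in nuclear RNA. Malat1, a long noncoding RNA kept in the nucleus, had a median of 8160 CPM in deep cells labelled WT and of 121 CPM in shallow ones. Labelled KIKO the medians were 8723 and 501 CPM. A Malat1 UMI was found in 63 of 106 (59.4%) and 30 of 41 (73.2%) shallow cells, at low levels. It was under 2000 CPM in 98 of 106 (92.5%) and 33 of 41 (80.5%) shallow cells, and in 24 of 304 (7.89%) and 5 of 93 (5.38%) deep cells. The plot of Malat1 by depth shows most shallow cells below nearly all deep ones in either library, with Ttr a large share of UMIs in nearly all of both.

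**Figure D2:**
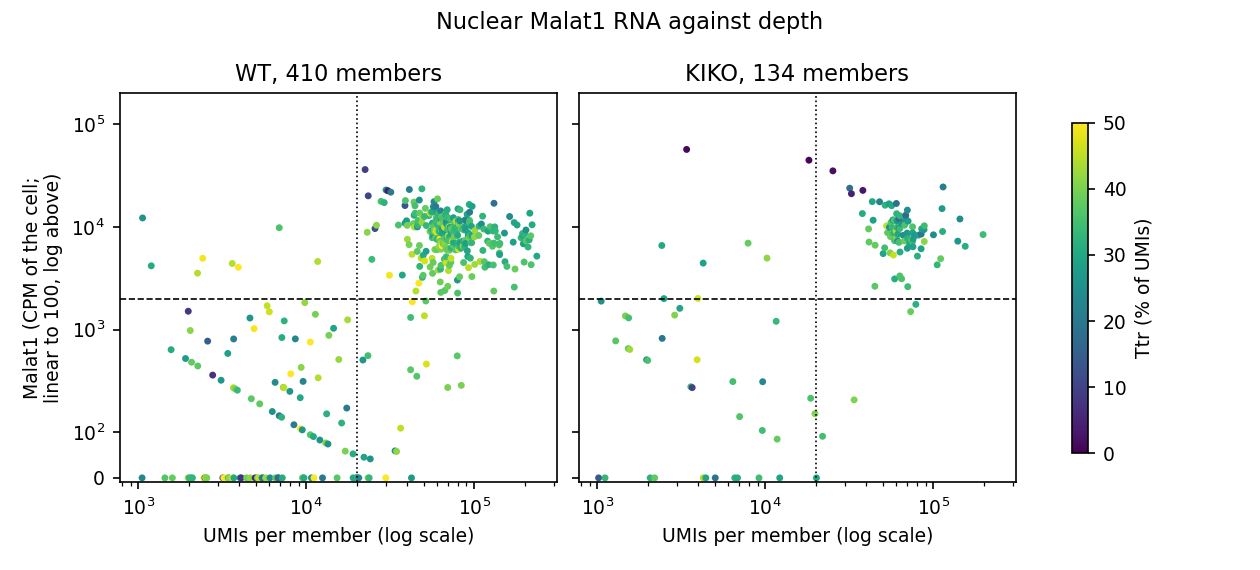
Malat1 in CPM (y axis, linear to 100 and logarithmic above) against UMIs per cell (x axis, log scale), 1 point per choroid plexus epithelial cell in a panel per library, coloured by the percentage of its UMIs from Ttr; the dashed line is 2000 CPM and the dotted line 20000 UMIs. Of the shallow cells 98 of 106 (WT) and 33 of 41 (KIKO) lie under the dashed line, against 24 of 304 and 5 of 93 deep cells.

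To compare shares of cells with a UMI at equal depth, each cell was thinned to 2000 UMIs, which left out 9 and 10 shallow cells. Xist, the nuclear RNA that coats the inactive X chromosome, was then found in 1 of 97 and 1 of 31 shallow cells (1.03% and 3.23%), and in 47.7% and 59.1% of deep cells and 63.7% and 65.7% of endothelial cells. Without thinning it was found in 4 of 106 and 1 of 41 shallow cells and in 95.1% and 96.8% of deep ones. Neat1, another nuclear noncoding RNA, was found after thinning in 4 of 97 and 2 of 31 shallow cells (4.12% and 6.45%). In deep cells its shares were 19.1% and 22.6%. Labelled KIKO the intervals of Neat1 overlapped, at 0.791 to 21.4 for shallow and 14.6 to 32.4 for deep cells. The rule's own genes are given as a description, since a cell was chosen by their detection, with Folr1 in 79.4% and 74.2% of shallow cells and 84.9% and 89.2% of deep cells, and Sostdc1 in 72.2% and 67.7% against 72.0% and 67.7%. Unthinned, these genes had more cells with a UMI in the deep group, as Folr1 with 93.4% and 85.4% of shallow and 99.3% and 100% of deep cells. Mitochondrial UMIs were a smaller share of shallow cells, with medians of 3.993% and 3.996% against 6.53% and 7.01%. At equal depth Malat1 was found in 41.2% and 58.1% of shallow cells and 95.4% and 97.8% of deep cells, so each of these nuclear RNAs was found in a smaller share of the shallow cells.

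Called here means a ratio of at least 1.5 or at most 1/1.5 whose exact interval for a ratio of 2 Poisson counts leaves out 1, and a gene was tested from 20 CPM in either group and 30 UMIs in the groups together. Of 5261 genes tested labelled WT, 24.9% were higher and 11.1% lower in deep than in shallow cells, and of 5836 labelled KIKO 13% were higher and 8.48% lower. In both libraries alike 547 of 5056 genes (10.8%) were higher and 147 (2.91%) lower in deep cells. On the log2 scale of deep over shallow, WT before KIKO, the largest differences common to both included those of 2610307P16Rik (5.82 and 4.78), Hdac9, a histone deacetylase (5.06 and 4.74), Grm8, a glutamate receptor (4.05 and 4.53), Prickle1 (5.26 and 3.71), Pde10a, a phosphodiesterase (4.93 and 3.66), and Agbl4, Cadm2 and Wwox at 3.30 or more. These genes were low in shallow cells, as Hdac9 with 136 against 4.07 CPM labelled WT and 114 against 4.27 labelled KIKO.

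Higher in shallow cells were Ctxn3 (-2.62 and -3.12), Cmss1 (-2.18 and -1.61), S100a11 (-1.45 and -2.34), AY036118 (-2.38 and -1.44), Gm42418 (-1.55 and -1.18), Scnm1 (-1.28 and -1.39) and Surf2 (-1.17 and -1.44). Hmgn2 (-1.66 and -1.27), Lxn (-1.26 and -1.69) and Bdh2 (-1.21 and -1.38) were higher beyond counting error labelled WT only, since each had 5 shallow UMIs labelled KIKO and an interval that held 0. Gm42418 (chr17:39846958-39848788, plus strand) and AY036118 (chr17:39847113-39848035, minus strand) overlap on GRCm38, so their reads are not independent. Gm42418 stood at 13491 CPM in shallow and 4609 CPM in deep cells labelled WT, and at 16244 and 7185 CPM labelled KIKO. Igf2, a growth factor released by the choroid plexus, was also higher in shallow cells (-1.03 and -0.79). Ttr (0.00 and -0.02) did not set the groups apart.

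By gene group, the 77 nuclear genes of the respiratory chain had medians of -0.50 and -0.37, with 3 and 7 of them higher in deep cells. The mitochondrially encoded genes ran the other way, at medians of 0.61 and 0.63 with 12 of 13 higher in both. Transporters of ions and water had medians of 0.48 and 0.59, those of nutrients 0.73 and 0.57, cholesterol synthesis 1.12 and 0.59, and secreted proteins 0.03 and 0.02, beside 0.08 and 0.04 over all genes. The median of the secreted proteins lies between members on both sides, with 13 of 23 and 13 of 25 higher in deep cells, and 3 and 2 called higher and 2 and 3 lower. The nuclear and mitochondrial genes of the respiratory chain differed in direction. What sets shallow cells apart was not tested.

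The comparison of the labels was made on the UMIs summed over all choroid plexus epithelial cells of each library, 24736873 labelled WT and 6585072 labelled KIKO, as the log2 of KIKO over WT CPM. Of 5310 genes tested, 95 (1.79%) were called higher and 19 (0.358%) lower labelled KIKO, and 19 differed by more than 2-fold. The median of all genes was 0.12, with 3971 genes (74.8%) above 0 and 1339 (25.2%) below. Ttr, the most abundant gene, was at -0.16, and a smaller share of one gene leaves a larger share to the others. With TMM factors (0.951 and 1.05), which center the genes, the median was -0.03 and the calls were 44 higher and 40 lower. The split between higher and lower calls thus depends on the scaling, and a log2 ratio near 0.12 is the middle of these cells. In endothelial cells the median was 0.02 over 6766 genes.

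**Figure D3:**
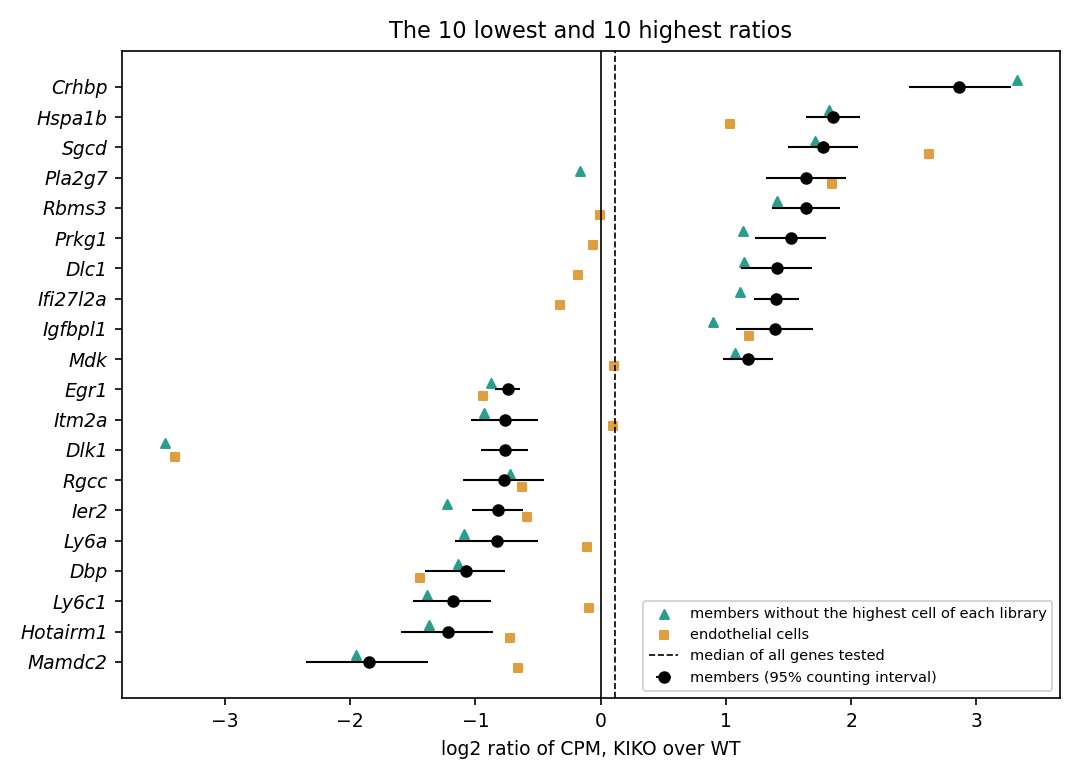
Log2 of KIKO over WT CPM (x axis) of the 10 genes with the lowest and the 10 with the highest ratio in choroid plexus epithelial cells; circles with bars give the value and its 95% counting interval, triangles the value without the highest cell of each library, squares the value in endothelial cells, and the dashed line the median of all genes, 0.12. Mamdc2 is lowest at -1.85 and Crhbp highest at 2.86, and the triangle leaves the circle for Dlk1 and Pla2g7.

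The lowest ratio was that of Mamdc2 (chr19:23302609-23448442, minus strand, GRCm38), a secreted protein of the extracellular matrix. It stood at 21.3 CPM labelled WT (527 UMIs in 205 cells) and 5.92 CPM labelled KIKO (39 UMIs in 29 cells), 3.60-fold lower (log2 -1.85, -2.36 to -1.38). With deep cells thinned to 20000 UMIs, it was found in 34.2% of those labelled WT and 15.1% of those labelled KIKO (difference -19.2 points, -27.2 to -9.12). In endothelial cells its log2 ratio was -0.66, from 4.37 and 2.77 CPM. Under every processing that gave a value, the log2 ratio of Mamdc2 lay between -1.99 and -1.39.

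Hotairm1 (chr6:52156902-52162119, plus strand, annotated as antisense), a noncoding RNA transcribed beside Hoxa2 in the HoxA cluster, was next at 25.1 and 10.8 CPM (log2 -1.22, -1.59 to -0.86). Dbp (chr7:45705088-45710203, plus strand), a transcription factor at the output of the circadian clock, stood at 30.04 and 14.3 CPM (log2 -1.07, -1.40 to -0.76), with UMIs in 250 of 410 and 51 of 134 cells. It was also lower in endothelial cells, at -1.44 (-1.78 to -1.11). Ier2 (60.6 and 34.3 CPM, log2 -0.82) and Egr1 (238 and 142 CPM, log2 -0.74), immediate-early genes that cells induce within minutes of a stimulus, were lower in these cells and in endothelial cells (-0.59 and -0.94). Both turned higher in cells of at most 20000 UMIs, at 3.24 and 2.35.

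Of the other low genes, Ly6c1 (log2 -1.18) and Ly6a (-0.82) are surface proteins of endothelium and stood at 3553 and 2689 CPM in endothelial cells labelled WT. Without the tenth of choroid plexus cells highest in endothelial markers, their ratios were 0.02 and 0.89. They belong to a family of near-copies, so the reads of either are uncertain. Itm2a (-0.76) and Rgcc (-0.77), at 1509 and 843 CPM in those endothelial cells, went to -0.35 and -0.32. Dlk1, a ligand related to the Notch ligands, had UMIs in 17 and 3 cells, and its -0.77 became -3.48 without its highest cell in each library and 1.78 without the tenth highest in endothelial markers. Without the cells highest in endothelial markers the ratios of these 5 genes were above 0 or closer to it. Those of Mamdc2, Hotairm1 and Dbp were -1.80, -1.46 and -1.09 without the same cells. Itm2a is itself one of the markers by which the cells were left out, so its shift was partly set by that choice. The contrast is therefore a description, and the source of these RNAs was not tested.

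The highest ratio was that of Crhbp (chr13:95431371-95444924, minus strand), the binding protein of corticotropin-releasing hormone, at 3.19 CPM labelled WT (9 cells) and 23.2 CPM labelled KIKO (12 cells), 7.28-fold higher (log2 2.86, 2.46 to 3.27). It was found in 8.60% of thinned deep cells labelled KIKO and 1.64% of those labelled WT. Sgcd (chr11:46896253-47988969, minus strand), a sarcoglycan of the membrane complex of muscle, stood at 9.22 and 31.6 CPM (log2 1.78, 1.499 to 2.05) in 45 and 21 cells, and was higher in endothelial cells as well (2.62, from 0.653 and 4.005 CPM). Rbms3 (chr9:116572746-117629913, minus strand), an RNA-binding protein, stood at 9.94 and 31.0 CPM (log2 1.64, 1.36 to 1.91), with -0.01 in endothelial cells. All 3 genes were read in a minority of the cells. Over cells with at least 50000 CPM of Ttr, Sgcd was at 1.42 and Rbms3 at 1.24.

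Mdk, midkine, a heparin-binding growth factor, was read in more cells, 181 of 410 and 65 of 134, at 22.6 and 51.0 CPM (log2 1.18, 0.98 to 1.38). In thinned deep cells its shares were 27.6% and 46.2% (18.6 points, 7.49 to 29.7). Ifi27l2a, an interferon-inducible gene, stood at 24.9 and 65.8 CPM (log2 1.40, 1.22 to 1.58) in 150 and 59 cells, and was at -0.32 in endothelial cells. Among cells of at most 20000 UMIs, Mdk was at -0.64 and Ifi27l2a at -0.52. The remaining high genes were sparse. Prkg1, a cGMP-dependent kinase (1.52), and Dlc1, a GTPase-activating protein (1.40), went to 0.41 and 0.56 without the tenth of cells highest in mural markers. Pla2g7 (1.64) was at -0.17 without its highest cells, since 1 cell held 110 of its 152 UMIs labelled KIKO, and Igfbpl1 (1.39) was at 0.90 without its highest cells. Over cells with at least 50000 CPM of Ttr, Igfbpl1 was at 0.80.

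The gene groups below are lists of 25 functions, each described by the number of measured members (at least 10 UMIs in both libraries together) above and below 0 and by the median. Over all genes tested, 35.8% were higher and 6.5% lower labelled KIKO beyond counting error, whatever the size, and the groups are read beside these shares.

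**Figure D4:**
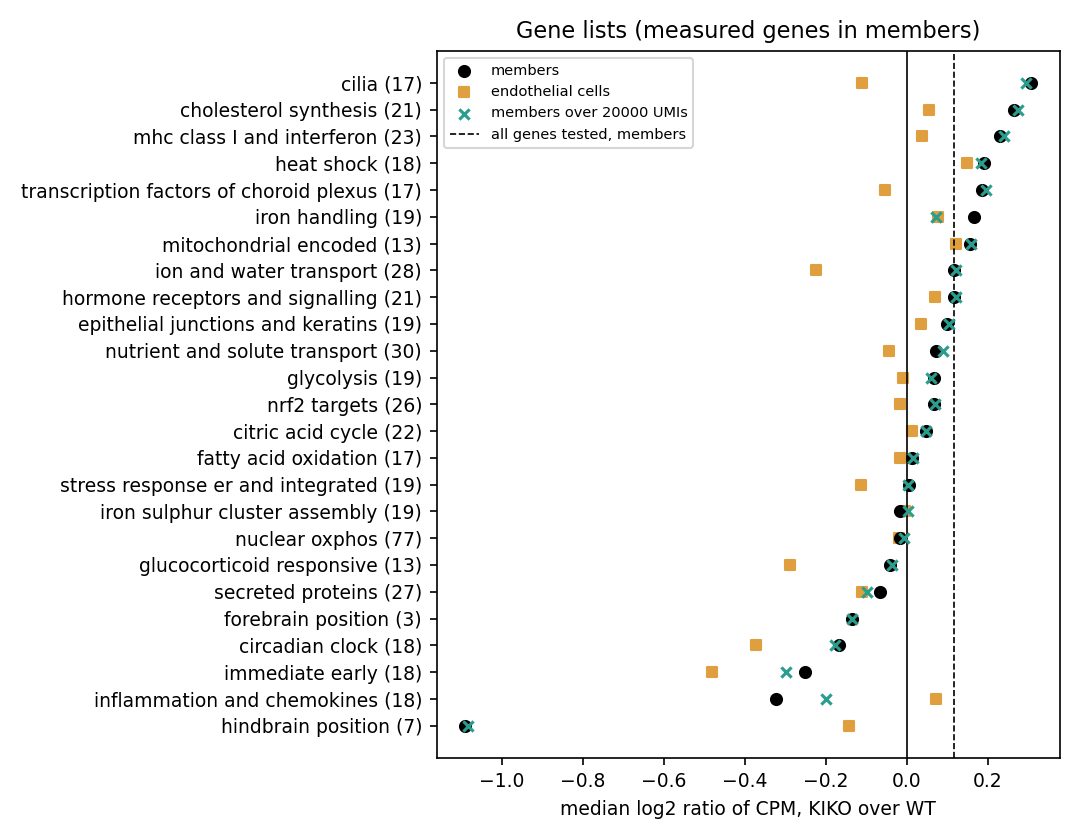
Median log2 of KIKO over WT CPM (x axis) for each of 25 gene lists; circles are all choroid plexus epithelial cells, crosses the deep cells and squares endothelial cells, and the dashed line is the median of all genes in choroid plexus epithelial cells, 0.12. The hindbrain position list is lowest at -1.09, and cilia are the highest list at 0.31.

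Secreted proteins had a median of -0.06 over 27 measured genes, with 8 higher and 12 lower beyond counting error. The median was 0.18 below that of all genes. The main products stood close together, as Enpp2 (0.02), Igfbp2 (0.00 after rounding) and Clu (-0.03), while Cst3, the protease inhibitor cystatin C (-0.25), Ptgds, a prostaglandin synthase (-0.17), and Apoe (-0.16) were lower with Ttr. Trf, transferrin, the iron carrier of blood and cerebrospinal fluid, was lower by 0.66 on the log2 scale (interval -0.76 to -0.57), from 260 CPM labelled WT to 164 labelled KIKO. Thinned deep cells had a Trf UMI in 87.5% and 72.0%. With the mitochondrial limit at 20% the log2 ratio of Trf was -0.01, with every cell weighted equally it was -0.29, and among shallow cells it was 0.76, so the lower level labelled KIKO was not found under each choice of cells. Among the higher genes were Igfbp7 (94.3 and 136 CPM, log2 0.53), an insulin-like growth factor binding protein, and Col18a1 (16.7 and 27.5 CPM, log2 0.72), a collagen of basement membranes.

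Transporters of ions and water had a median of 0.12, that of all genes, with 24 of 28 above 0 and 15 higher beyond counting error. The bicarbonate transporter Slc4a10 stood at 604 CPM labelled WT and 763 labelled KIKO (log2 0.34, 0.29 to 0.38), the cation channel Trpv4 at 123 and 168 (0.44, 0.34 to 0.54), and the channel Trpm3 had a log2 ratio of 0.31. Among shallow cells Slc4a10 was at -0.16 and Trpm3 at -0.14. The water channel Aqp1 (78.9 and 82.8 CPM, log2 0.07, -0.07 to 0.21) and the cotransporter Slc12a2 (412 and 421 CPM, log2 0.03) differed within or near counting error. Atp1b1, a subunit of the Na/K-ATPase, was at 0.08. No gene of this group was called, and its median was -0.03 with TMM factors.

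Nutrient transporters had a median of 0.07, with 9 higher and 4 lower of 30 beyond counting error. Slc5a3, a myo-inositol transporter, was at 0.40 and Slc23a2, the vitamin C transporter, at 0.17, while Slc2a12, a glucose transporter, was at -0.17. Receptors and signalling genes had a median of 0.12 over 21 genes. Among them Htr2c, the serotonin receptor for which the choroid plexus is known, was at 0.10, and Prlr, the prolactin receptor, at -0.04. Bmpr1b, a BMP receptor, was at 0.59 (14.6 and 22.02 CPM). Junction and keratin genes had a median of 0.10 over 19, and Cldn2, a claudin of leaky epithelia, was at -0.19 (126 and 110 CPM). With TMM factors, which move the log2 ratio of every gene by the same amount, the medians of these 3 groups were -0.07, -0.03 and -0.05. None of the 3 held its sign, which follows from that common shift and is not particular to these groups.

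Transcription factors of the choroid plexus had a median of 0.19 over 17 genes, with 7 higher and 2 lower beyond counting error. Otx2, which the choroid plexus needs throughout life, was at 240 and 249 CPM (log2 0.05, -0.03 to 0.13). Lmx1a, a factor of the roof plate from which the tissue arises, stood at 80.2 and 106 CPM (log2 0.41, 0.28 to 0.53). Rfx3 (144 and 193 CPM, log2 0.42, 0.33 to 0.51) and Rfx2 (17.9 and 25.5 CPM, log2 0.51), regulators of ciliary genes, were higher labelled KIKO, as was Trp73, of the same program (0.48). Foxj1, the regulator of motile cilia, was at 0.19.

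All 17 measured genes of cilia were above 0, 12 of them beyond counting error, at a median of 0.31. In endothelial cells, which lack motile cilia, the median of 16 was -0.11. Dnah11, an axonemal dynein, stood at 27.0 and 43.3 CPM (log2 0.68, 0.48 to 0.88), Hydin, of the central pair of the axoneme, at 6.59 and 11.4 CPM (0.79, 0.38 to 1.19), and Ift88, of intraflagellar transport, at 0.51. Against the background of 74.8% of all genes above 0, these genes were 0.19 above the median of all genes. With TMM factors the list median was 0.16, and its lowest under any processing was 0.11.

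The nuclear genes of the respiratory chain had a median of -0.02 over 77 genes, 0.13 below that of all genes, with 24 lower and 4 higher beyond counting error. The largest of these differences were small, as Ndufa4 at 1596 and 1386 CPM (log2 -0.20, -0.24 to -0.17), Ndufb11 (-0.18) and Cox6a1 (-0.17), and none was called. Of the mitochondrially encoded genes 9 were above and 4 below 0, at a median of 0.16. The cytochrome c oxidase subunits mt-Co2 (4472 and 6319 CPM, log2 0.50) and mt-Co3 (6302 and 8548 CPM, 0.44) were higher, as they were in endothelial cells (0.57 and 0.53). The complex I gene mt-Nd5 was lower (4827 and 3955 CPM, -0.29), while it was at 0.01 in endothelial cells and at 0.10 in shallow cells. Genes of the citric acid cycle (median 0.05), glycolysis (0.07) and fatty acid oxidation (0.01) held none that was called, and with TMM factors these medians were -0.10, -0.08 and -0.13.

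Iron-sulphur cluster assembly was level apart from single genes. Its genes had a median of -0.02 over 19 genes, 2 higher and 3 lower beyond counting error. Iscu, the scaffold on which the clusters form, was at -0.02 and the sulphur donor Nfs1 at 0.03. Nubp1, of the cytosolic pathway, was at -0.61 (-1.14 to -0.12) from 224 and 39 UMIs. Of the genes that handle iron, the transferrin receptor Tfrc was at 0.64 (6.99 and 10.9 CPM, 0.23 to 1.05), and at 0.20 without the tenth of cells highest in endothelial markers. The importer Slc11a2 was at 0.48 and mitoferrin Slc25a37 at 0.70. The exporter ferroportin, Slc40a1, was at -1.36 (87 and 9 UMIs, -2.54 to -0.37) in 26 and 3 cells. Targets of the antioxidant regulator Nrf2 had a median of 0.07 over 26 genes, or -0.08 with TMM factors, with Txnrd1 at 0.39 and Gsr at 0.38.

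Heat-shock genes were higher labelled KIKO, 16 of 18 above 0 and 12 beyond counting error, at a median of 0.19, or 0.05 with TMM factors. These chaperones refold damaged proteins and are induced by heat and by tissue handling. Hspa1b (chr17:34956436-34959238, minus strand) stood at 14.7 and 53.2 CPM (log2 1.86, 1.64 to 2.07) in 93 of 410 and 44 of 134 cells, and Hspa1a (chr17:34969190-34972156, minus strand) at 31.9 and 68.3 CPM (1.10, 0.93 to 1.27). Since the pair is nearly identical and reads may be split between them, their sum was taken, which was 46.6 and 121 CPM (1.38, 1.25 to 1.51). The sum was also higher in endothelial cells, at 0.87, from 2136 and 3899 CPM, so the pair was lower in choroid plexus cells and differed in the same direction in both. Dnajb1, their cochaperone, stood at 47.0 and 82.0 CPM (0.80, 0.65 to 0.95) and at -0.21 in endothelial cells. Stip1 was at 0.43, Hspa8, the constitutive form, at 0.12, and the mitochondrial Hspe1 at -0.20.

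Of 14 heat-shock genes with a RefSeq promoter, 6 held GAANNTTC, the core letters of the heat-shock element (both strands, letters chosen after these values were seen), against 6.69% of all promoters. They were Dnaja1, Hspa1a, Hspa1b, Hspb1, Hspd1 and Hspe1, of which Hspe1 was below 0. The promoters of Hspa1a (chr17:34972157-34972406) and Hspa1b (chr17:34959239-34959488) are shown because the 2 genes had the largest ratios of the group and cannot be told apart upstream either. They are identical at 247 of 250 positions (98.8%), with the element, in capitals, 104 bases before the start in both (RefSeq, GRCm38.p6, minus strand).
Hspa1a: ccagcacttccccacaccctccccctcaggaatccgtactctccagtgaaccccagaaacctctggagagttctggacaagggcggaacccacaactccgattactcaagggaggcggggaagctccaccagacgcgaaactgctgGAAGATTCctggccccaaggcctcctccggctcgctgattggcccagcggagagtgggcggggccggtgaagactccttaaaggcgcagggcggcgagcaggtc
Hspa1b: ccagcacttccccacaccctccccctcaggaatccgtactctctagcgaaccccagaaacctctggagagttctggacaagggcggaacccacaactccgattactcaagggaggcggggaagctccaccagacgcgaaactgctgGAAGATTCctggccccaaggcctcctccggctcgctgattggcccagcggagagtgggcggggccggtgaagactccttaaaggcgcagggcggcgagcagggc

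Genes of the circadian clock differed in both directions. Over the 18 genes the median was -0.17, with 5 higher and 5 lower beyond counting error, and among shallow cells the median was 0.43. The activator Arntl (chr7:113207465-113314126, plus strand), which encodes BMAL1, stood at 6.39 CPM labelled WT and 19.6 labelled KIKO, 3.07-fold higher (log2 1.62, 1.27 to 1.96), in 103 of 410 and 52 of 134 cells. Its partners Npas2 (9.34 and 13.8 CPM, 0.57, 0.20 to 0.92) and Clock (0.30) were higher too, as were the repressors Cry1 (14.1 and 18.7 CPM, 0.40, 0.09 to 0.70) and Bhlhe40 (36.8 and 49.5 CPM, 0.43, 0.24 to 0.61). Lower were Dbp at -1.07, Ciart at -1.17 (59 and 7 UMIs, -2.54 to -0.03), Per3 at -0.42, Tef at -0.40 and Nr1d2 at -0.32. Per1 (0.20), Per2 (-0.21) and Nr1d1 (-0.12) differed within counting error. In endothelial cells Arntl was at 0.49, Npas2 at 1.02, Dbp at -1.44 and Tef at -0.71, each in the direction of the choroid plexus cells. Per2, within counting error in the latter, was at -0.86 in endothelial cells. The other clock genes are not compared singly, and the list median in endothelial cells was -0.37 over 17 genes. The hours of tissue collection were not given in the sources used here, and cannot be told apart from the label.

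Of 15 clock genes with a RefSeq promoter, 5 held the E-box CACGTG to which BMAL1 binds (Bhlhe41, Ciart, Cry1, Per1 and Tef; letters chosen after these values were seen), against 6.02% of all promoters, and none held the REV-ERB letters TAGGTCA (2.23%). Arntl was among the genes without either. The promoter of Ciart (chr3:95882229-95882478, RefSeq, GRCm38.p6, minus strand) is shown as the one with most of them, with 3 E-boxes in capitals 116, 58 and 44 bases before the start.
Ciart: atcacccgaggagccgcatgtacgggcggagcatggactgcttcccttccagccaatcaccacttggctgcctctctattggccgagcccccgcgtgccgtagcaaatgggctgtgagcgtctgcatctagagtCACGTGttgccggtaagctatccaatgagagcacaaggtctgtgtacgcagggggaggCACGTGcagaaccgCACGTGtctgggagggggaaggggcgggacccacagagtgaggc

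Immediate-early genes were lower labelled KIKO, with 16 of 18 below 0, 12 of them beyond counting error, at a median of -0.25. Junb stood at 165 and 106 CPM (log2 -0.64, -0.76 to -0.52), Fos at 683 and 579 (-0.24) and Jun at 472 and 415 (-0.19), while Dusp1, a phosphatase of the same response, was higher at 296 and 352 (0.25, 0.18 to 0.32). The list was lower in endothelial cells too, at a median of -0.48. Among shallow cells the median was 2.40, which rests on few cells. A pair of KIKO-labelled cells of 18200 and 3403 UMIs held 751 and 128 immediate-early UMIs, with Ttr at only 0.703% and 1.12% of their UMIs. Over shallow cells with at least 50000 CPM of Ttr the median was -0.89, the direction of the deep cells (-0.30). Glucocorticoid-responsive genes had a median of -0.04 over 13, with Tsc22d3 (12.6 and 5.92 CPM, -1.09, -1.61 to -0.60), Zbtb16 (-1.04) and Sgk1 (331 and 261 CPM, -0.34) lower.

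Genes of MHC class I and interferon had a median of 0.23 over 23, with 7 higher and 1 lower beyond counting error. Beside Ifi27l2a, Ifitm3, which restricts viral entry, stood at 84.1 and 128 CPM (log2 0.61, 0.49 to 0.72). The class I genes B2m (80.4 and 80.8 CPM, 0.01) and H2-K1 (-0.04) were level. Genes of inflammation had a median of -0.32 over 18 of 28, with 2 higher and 6 lower beyond counting error. The median was 0.42 among shallow cells, 0.55 under 5% mitochondrial UMIs and 0.03 over the genes with at least 100 UMIs, so its direction rests on the cells and genes taken. Vcam1, an adhesion molecule of leukocytes, was at -0.50 (113 and 79.6 CPM), Nfkbia, the inhibitor of NF-kB, at -0.46, and the chemokine Cxcl1 at -2.95 from 58 and 2 UMIs. Another chemokine, Cxcl12, was at -1.60 in 39 and 16 cells, and at 0.74 without the tenth of cells highest in endothelial markers. Of the macrophage and microglia markers 9 of 9 measured were above 0, from the sums given above, and their part in these groups was not tested.

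Cholesterol synthesis had a median of 0.27, with 18 of 21 above 0 and 12 higher and none lower beyond counting error. Hmgcs1, an early enzyme of the pathway, stood at 100.2 and 139 CPM (log2 0.47, 0.36 to 0.58), Msmo1 at 82.9 and 107 (0.37) and Lss, the cyclase, at 0.64 (0.16 to 1.11). In endothelial cells the median was 0.06.

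Choroid plexus forms in the hindbrain and in the forebrain, and cells of the hindbrain plexus keep Hox genes. The position genes of the hindbrain were the lowest of all groups, with 7 of 16 measured, all 7 below 0, 2 of them beyond counting error and both called, at a median of -1.09. With the mitochondrial limit at 20% the median was -0.40 over 8 genes. Under 5% mitochondrial UMIs 3 genes were measured, at 0.05, and after thinning to 5000 UMIs 1 gene, at 0.05. Hoxb2 (chr11:96350525-96354012, plus strand) had 114 UMIs labelled WT and 10 labelled KIKO, in 63 and 6 cells (log2 -1.60, -2.70 to -0.67). Hoxb4 (chr11:96318267-96321638, plus strand) had 73 and 4 UMIs in 43 and 3 cells (-2.28, -4.19 to -0.86). Meis1, a cofactor of Hox proteins that is also used elsewhere, was at -0.02 from 400 and 105 UMIs. The difference was thus in the Hox genes and Hotairm1.

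In cells, any Hox UMI was found in 126 of 304 deep cells labelled WT (41.4%) and 17 of 93 labelled KIKO (18.3%). Thinned to 20000 UMIs the shares were 27.96% and 12.9% (-15.1 points, -22.6 to -5.49), against 2.39% and 2.86% in unthinned endothelial cells. Hotairm1 was found in 49.7% and 24.7% of deep cells, and after thinning in 30.3% and 12.9% (-17.4 points, -25.0 to -7.72), with 1.51% and 1.06% in endothelial cells. The forebrain genes Emx1, Otx1 and Six3 gave another picture. At least 1 UMI of them was found in 49.7% and 45.2% of deep cells and, thinned, in 22.7% and 24.7%, a difference of 2.03 points whose interval held 0 (-7.12 to 12.6), with 0 of 1128 endothelial cells labelled WT (a limit of 0.266%) and 4 of 1610 labelled KIKO. The share of cells with Hox RNA therefore differed between the libraries beyond counting error, and that with Emx1, Otx1 or Six3 did not. Emx1 itself was higher in the deep cells with a Hox UMI than in those without (log2 2.46 labelled WT and 1.07 labelled KIKO). A UMI of these genes thus did not mark cells as free of Hox RNA, and the shares are not opposite measures of position. Which ventricles each dissection held was not given in the sources used here, and the plexus of origin cannot be told apart from the label.

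**Figure D5:**
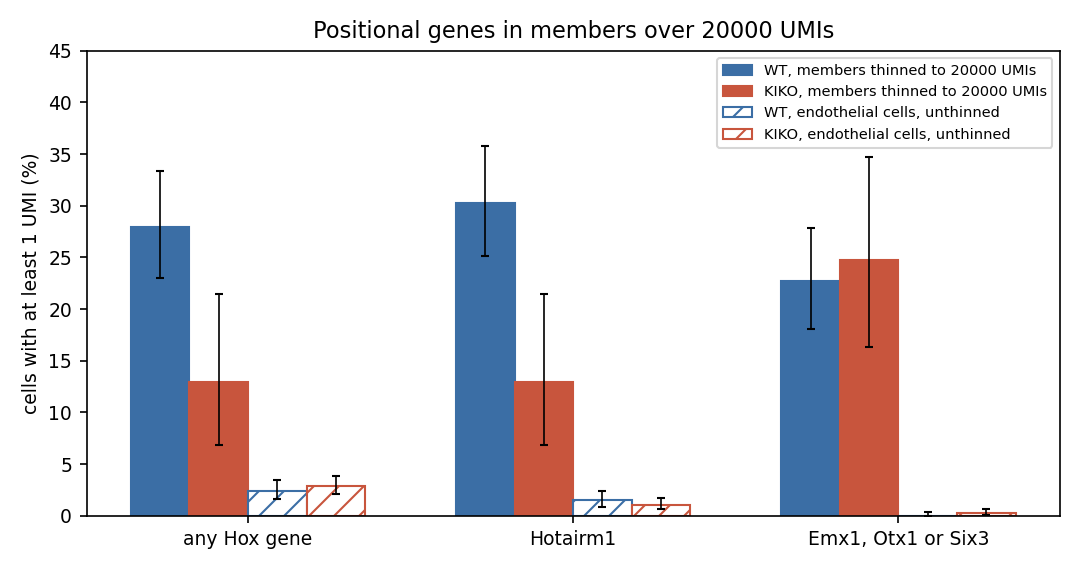
Percentage of cells (y axis, from 0) with at least 1 UMI of any Hox gene, of Hotairm1, and of Emx1, Otx1 or Six3, as bars for WT and KIKO in deep choroid plexus epithelial cells thinned to 20000 UMIs and in unthinned endothelial cells; error bars are exact 95% binomial intervals. Hox bars stand at 27.96% and 12.9%, Hotairm1 bars at 30.3% and 12.9%, the bars of Emx1, Otx1 or Six3 at 22.7% and 24.7%, and endothelial bars under 3%.

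Deep cells with and without a Hox UMI were set side by side within each library (126 and 178 labelled WT, 17 and 76 labelled KIKO), as a description without a test, since the cells were sorted by a UMI that is found more readily in deeper cells. In both libraries 27 of 5045 genes were higher and 4 lower in the cells with Hox RNA. Higher were Hotairm1 (log2 2.39 labelled WT and 2.85 labelled KIKO), the zinc-finger factor Mecom (1.69 and 2.43), Brinp1 (1.24 and 1.55), Arhgap20 (1.19 and 1.40), Meis1 (0.81 and 1.05) and Egr1 (0.84 and 1.74). Emx1, a forebrain gene, was also higher in them (2.46 and 1.07). Lower were Dlk1 (-1.96 labelled WT, and at 0 in the 17 cells labelled KIKO), the imprinted noncoding RNA Meg3 (-0.76 and -1.19), Ceacam16 (-0.70 and -3.75) and Defb11 (-0.68 and -1.03). Ttr was level (-0.02 and 0.03).

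Among the cells of a library, the spread was described by the variance over the mean of UMIs after thinning each cell to 5000 UMIs, which kept 363 and 109 cells and left out 47 and 25. A value near 1 is expected from counting alone for most genes. It is lower for a gene as abundant as Ttr, since the total of each cell is fixed. Ttr varied most, at 83.4 labelled WT and 110.3 labelled KIKO, followed by Gm42418 (25.9 and 25.8) and Malat1 (19.7 and 27.4). Trpm3, an ion channel gene, stood at 12.5 and 22.6, Htr2c at 6.83 and 10.96, Enpp2 at 9.09 and 8.21, Cmss1 at 9.60 and 7.93 and Cadm2 at 5.19 and 4.96. This measure grows with a gene's mean, and the rule's own genes, whose spread the choice of cells limits, are left out of this comparison. Dlk1 (9.74 and 24.3) and Adgrb3 (0 UMIs labelled WT, 7.70 labelled KIKO) stood out through few cells, since 1 cell held 92.9% and 81.8% of their thinned UMIs labelled KIKO. Apart from these, the genes that varied most were the main secreted product, the noncoding RNAs Malat1 and Gm42418 that also set deep from shallow cells apart, and the receptors and channels Htr2c and Trpm3.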

How the data were processed

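Single-cell suspensions of pooled mouse cerebella were captured with a 10x Chromium single-cell kit, 1 library labelled WT and 1 labelled KIKO. The authors made the deposited files, unnormalized UMI counts for each gene in each barcode, with Cell Ranger (7.0.1 per the file headers) against mm10. Coordinates came from GENCODE vM21, in which 32235 of 32285 gene identifiers were found, and promoters (32851) from RefSeq for GRCm38.p6. Where a symbol had 2 rows, the row with more UMIs was taken.

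Barcodes were filtered and chosen as the report states. Limits of 20000 UMIs and 10000 genes, both required of every cell, were an alternative. The study's words can also mean cells that exceed both, which was added after seeing the data. No doublet caller was run. UMI counts were summed per library and given as CPM. Ratios carry exact 95% intervals of 2 Poisson counts, shares exact (Clopper-Pearson) intervals and their differences Newcombe intervals, all for counting error only. A count of 0 was bounded by 3 counts. Thinning drew UMIs without replacement with a fixed seed.

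Named were the genes of the lists, the 10 highest and 10 lowest KIKO over WT ratios (at least 20 CPM in one library and 30 UMIs in all, leaving out the rule's 10 genes and sex-linked genes), the 15 genes leading over other kept cells, the 10 highest and 10 lowest deep over shallow ratios common to both libraries, and the 10 most variable genes. The comparison of cells with and without Hox RNA, and 3 motifs, were added after values were seen. The cells, lists and rules were chosen with earlier results of these data known. Alternatives changed the cell limits, the rule, the scaling, the weight and thinning of cells and the gene filter.

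Computations used Python 3.11.15 with numpy 2.4.6, scipy 1.17.1, pandas 2.3.3 and matplotlib 3.10.9, and edgeR 4.0.16 in R 4.3.3 for TMM factors only. The functions were tested on simulated data. Some genes that the naming rule selects are not reported here. Total UMIs were 24736873 and 6585072 in the cells described.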

Additional observations from a re-analysis of the deposited data

Results flagged for a closer look

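Immediate-early genes differed between deep and shallow choroid plexus epithelial cells in opposite directions in the 2 libraries. The median log2 ratio of deep over shallow cells over 15 measured genes was 1.71 in the library labelled WT and -1.36 in the library labelled KIKO. Among cells with at least 50000 CPM of Ttr the medians were 1.71 and 2.13, so the opposite direction was absent without the few cells low in Ttr. The difference was not tested.

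Trf, transferrin, was lower labelled KIKO in choroid plexus epithelial cells, at a log2 ratio of -0.66 (interval -0.76 to -0.57) from 260 and 164 CPM, and higher in endothelial cells, at 0.77 (0.45 to 1.10) from 7.57 and 13.0 CPM. With the mitochondrial limit at 20% Trf was at -0.01 in choroid plexus epithelial cells, and with every cell weighted equally at -0.29. With 1 library per label the difference between the 2 cell types was not tested against replicates.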

How the results depend on the processing

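No paired analysis was possible because each label has 1 library and no test was made. The main counts of calls were 95 higher and 19 lower labelled KIKO. They were 174 and 81 with at most 20000 UMIs and 10000 genes, 1085 and 83 under 5% mitochondrial UMIs, 44 and 40 with TMM factors, 309 and 48 with every cell weighted equally, 379 and 44 thinned to 5000 UMIs, 198 and 39 from 10 CPM and 34 and 5 from 50 CPM. Lower calls were 11 with a marker sum at least 10 times the endothelial sum, 49 without Ttr and mitochondrial UMIs in the total, and 12 without the tenth of cells highest in endothelial markers. Higher calls were 57 under 20% mitochondrial UMIs and 56 with at least 50000 CPM of Ttr. With a limit of 40000 UMIs between deep and shallow cells, 31 genes were higher and 32 lower in deep cells of both libraries, against 547 and 147. The share of these cells differed by -5.6 points with at most 20000 UMIs and by -7.1 under 5% mitochondrial UMIs.

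With TMM factors the median of all genes was -0.03, of secreted proteins -0.21, of ion and water transport -0.03, of nuclear respiratory chain genes -0.16 and of heat-shock genes 0.05. With at most 20000 UMIs the medians were -0.06 for ion and water transport, -0.13 for the respiratory chain, 2.40 for immediate-early and -0.06 for heat-shock genes. Under 5% mitochondrial UMIs they were 0.20, -0.23 and 0.92 for the first 3, and -0.03 for cholesterol synthesis. Without Ttr and mitochondrial UMIs the secreted proteins were at -0.14 and the respiratory chain at -0.09, which was at -0.11 after thinning. Immediate-early genes were at 0.02 with equal weights and -0.48 under 20% mitochondrial UMIs, where secreted proteins were at 0.02.

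Medians of other groups changed direction too. With at most 20000 UMIs, those that moved by more than the counting error of the list's typical gene were 0.43 for the clock, 0.42 for inflammation, -0.41 for fatty acid oxidation and -0.11 for Nrf2 targets. Single genes that changed direction are given as log2 ratios. With at most 20000 UMIs, Ier2 was at 3.24, Junb at 2.46, Egr1 at 2.35, Trf at 0.76, Ifi27l2a at -0.52, Mdk at -0.64, Dnajb1 at -1.05, mt-Nd5 at 0.10, Trpm3 at -0.14 and Slc4a10 at -0.16. With more than 20000, Pla2g7 was at -0.22 and Cp, at 0.70 over all choroid plexus cells, at -0.34. Under 5% mitochondrial UMIs, Egr1 was at 1.08, Cxcl12 at 1.0, Ier2 at 0.89, Junb at 0.87, Ly6a at 0.34, Tsc22d3 at 0.09, Trf at 0.01 and Ifi27l2a at -0.70. Without the tenth highest in endothelial markers, Dlk1 was at 1.78, Ly6a at 0.89, Cxcl12 at 0.74, Ly6c1 at 0.02 and Pla2g7 at -0.44. With the 10-fold endothelial rule, Ly6a was at 0.55 and Cxcl12 at 0.07. With equal weights, Dlk1 was at 0.17 and Ier2 at 0.09, and thinned Dlk1 was at 0.30. With at least 50000 CPM of Ttr, Pla2g7 was at -0.19 and Cp at -0.30, and without the highest cell of each library at -0.17 and -0.04. Under 20% mitochondrial UMIs Trf was at -0.01. Without the 9 and 1 cells over both 20000 UMIs and 10000 genes, no log2 ratio or median listed here changed direction. The causes were not tested. The limit of 20% mitochondrial UMIs, the Ttr limit, the joint limit, and the fits without highest cells or highest marker cells were chosen after seeing the data. For 50 genes, 42 combinations of gene and setting held under 30 UMIs and gave no value. Small cell numbers labelled KIKO, 36 under 5% mitochondrial UMIs and 41 at most 20000 UMIs, limit the precision of those settings.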
